A study of Rattus norvegicus with 6 samples.

Results

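The genes of the mitochondrial ribosomal proteins were compared between sham and ischemic rat myocardium at 30 min. They were taken by name, as every row of the gene table whose symbol began with *Mrpl* or *Mrps* followed by a digit, which gave 76 of 32623 rows. Myocardial tissue of wild-type (WT) male rats had been sequenced as total RNA in 2 groups of 3 samples. In the ischemia group the left anterior descending coronary artery was tied for 30 min after a left thoracotomy, and the sham samples carried the same 30 min label, with no ligation named in their own treatment label. No strain or age was given in the labels, and nothing in them states that each library came from a different rat, so that the p-values measured the spread between these 6 samples.

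Mitochondria carry their own ribosome, which makes the few respiratory chain proteins still encoded in the mitochondrial genome. Its RNA comes from that genome, but all of its proteins are encoded in the nucleus, made on cytosolic ribosomes and imported. The small subunit binds and decodes the messenger RNA, and the large subunit joins the amino acids. Many of these proteins descend from those of bacteria, and others exist only in mitochondria. Heart muscle is rich in mitochondria and depends on the respiratory chain that this ribosome helps to build. The names do not always give the place: the products of *Mrps30* and *Mrps18a* sit in the large subunit, and that of *Mrps36* is not in the ribosome but in the 2-oxoglutarate dehydrogenase complex. On that basis 47 genes were counted to the large subunit and 26 to the small one. Both *Mrps21l* rows, copies of *Mrps21* by name on chromosome 18, lay under the expression filter described next. One of them had no count in any sample. The other had 0, 15 and 8 counts in the sham samples and 0, 0 and 5 counts in the ischemia samples, in the order of replicates 1 to 3, which is kept for all values below. Reads shared with such copies could have been lost or misplaced in counting, which leaves the value of *Mrps21* itself less certain.

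The other 74 genes entered the comparison, which was fitted to the raw counts of all 13964 genes with a mean of 0.5 or more FPKM (fragments scaled to gene length and to library size). Total counts per sample ranged from 68529126 to 79591989. Between 15.4% and 21.4% of them fell on the mitochondrial genome, and the 76 rows held 0.346%, 0.426% and 0.356% of all counts in the sham samples and 0.413%, 0.270% and 0.324% in the ischemia samples. Markers of cell types varied within the groups too. The summed FPKM of 7 ventricular cardiomyocyte markers was 16547, 23191 and 14768 in sham and 15342, 6152 and 12088 in ischemia. For 5 atrial markers the sum was 48344, 216 and 39345 in sham and 9610, 2078 and 1279 in ischemia. Sham replicate 1 had 161 counts on chromosome Y against 3218 to 8970 in the other 5 libraries, although the labels call the rats male.

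Many genes of this family share short motifs near their start, so the letters of a few promoters are shown before the values. RefSeq windows on the rat build GRCr8, from 250 bases before to 50 after the start, were matched by symbol and gave 61 windows for 59 of the genes. The 4 windows below belong to the genes with the most positive fitted change (*Mrps2* and *Mrps18b*), to *Mrpl18*, whose groups lay farthest apart in the negative direction relative to the error, and to *Mrpl17*, the gene with the highest level. Capitals mark motif matches on either strand, and each run is written 5′ to 3′ on the strand of the gene.
Mrps2, chr3:32200827-32201126, + strand: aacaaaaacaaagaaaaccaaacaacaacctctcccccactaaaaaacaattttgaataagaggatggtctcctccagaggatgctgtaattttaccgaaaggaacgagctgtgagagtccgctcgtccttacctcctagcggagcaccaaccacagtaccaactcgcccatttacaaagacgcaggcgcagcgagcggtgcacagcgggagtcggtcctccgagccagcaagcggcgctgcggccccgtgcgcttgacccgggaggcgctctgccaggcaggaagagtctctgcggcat
Mrpl18, chr1:50384702-50385001, + strand: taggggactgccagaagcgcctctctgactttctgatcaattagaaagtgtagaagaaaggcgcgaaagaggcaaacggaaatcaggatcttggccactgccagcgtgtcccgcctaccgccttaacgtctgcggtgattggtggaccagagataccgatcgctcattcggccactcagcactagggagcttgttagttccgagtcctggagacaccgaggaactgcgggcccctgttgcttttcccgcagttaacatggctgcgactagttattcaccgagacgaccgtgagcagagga
Mrpl17, chr1:169575650-169575949, - strand: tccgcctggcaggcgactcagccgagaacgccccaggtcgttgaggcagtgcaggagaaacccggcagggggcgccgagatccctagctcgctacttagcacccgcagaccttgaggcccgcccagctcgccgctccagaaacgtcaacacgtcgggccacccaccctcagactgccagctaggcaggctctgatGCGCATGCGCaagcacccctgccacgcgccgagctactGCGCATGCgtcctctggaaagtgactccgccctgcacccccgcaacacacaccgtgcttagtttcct
Mrps18b, chr20:2842756-2843055, + strand: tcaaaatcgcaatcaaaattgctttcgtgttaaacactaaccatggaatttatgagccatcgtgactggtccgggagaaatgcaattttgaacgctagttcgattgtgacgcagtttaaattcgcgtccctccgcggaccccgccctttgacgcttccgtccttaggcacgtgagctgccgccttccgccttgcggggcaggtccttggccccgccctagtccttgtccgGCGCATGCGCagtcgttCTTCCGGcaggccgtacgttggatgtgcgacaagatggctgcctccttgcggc
The palindrome to which nuclear respiratory factor 1 (NRF1) is known to bind, GCATGCGC with the bases GC before it, stood 55 bases before the start of *Mrpl17* and 20 bases before that of *Mrps18b*. *Mrpl17* held the form without that GC once more 17 bases before its start, and *Mrps18b* held the motif CCGGAAG, known from ETS factors such as GABP, on the minus strand 3 bases before its start. None of the motifs searched was in the windows of *Mrps2* and *Mrpl18*.

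Over all 61 windows, searched on both strands, the NRF1 palindrome was in 4 (6.56%), against 1.81% of 10744 windows of the genes tested and 0.852% of all 33469 windows in the table. The shorter form, which every palindrome contains, was in 5 (8.20%, against 4.95% and 2.47%). The ETS motif was in 20 (32.8%, against 16.7% and 8.75%), and the motif AAGATGGCG of YY1 was in 9 (14.8%, against 3.51% and 1.73%). At least 1 motif was in 29 windows (47.5%), against 23.1% of windows of tested genes. The median log2 fold change was -0.16 over the 29 windows with a motif and -0.30 over the other 32. By motif it was 0.14 over the 5 windows with the NRF1 form and -0.26 over the other 56, -0.18 and -0.28 for ETS, and -0.16 and -0.27 for YY1. The 5 genes with the NRF1 form were spread widely: *Mrpl44* (-0.71), *Mrpl22* (-0.11), *Mrpl32* (0.14), *Mrpl17* (0.26) and *Mrps18b* (0.55 ± 0.57, SE). Differences between windows with and without a motif were not tested. These matches are letters only and say nothing of binding in the samples.

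No mitochondrial ribosomal protein gene passed the threshold between ischemia and sham, and most fitted values lay slightly below 0. With an adjusted p under 0.05 (quasi-likelihood test of edgeR, Benjamini-Hochberg adjustment over all 13964 genes), ischemia was higher in 0 of the 74 genes and lower in 0, against 5.18% higher and 1.53% lower of all genes tested. At an unadjusted p under 0.05, 1 gene was higher and 5 were lower, against 18.2% and 14.2% of all genes. With DESeq2, 1 gene (*Mrps2*) was higher and 2 (*Mrpl18* and *Mrps18c*) were lower, where DESeq2 called 14.8% of all genes higher and 12.5% lower. Without ischemia replicate 1, edgeR called *Mrps2* higher and *Mrpl18* lower (10.7% and 7.98% of all genes). The fitted log2 fold changes, ischemia minus sham, ran from -1.10 to 0.82. Their median was -0.27, compared with -0.0015 over all genes, and 59 of the 74 lay below 0. The SD of the changes over the genes was 0.34 against 1.39 over all genes, whose median FPKM of 6.83 was lower than the 33.9 of the family. The SD was 0.32 over 81 cytosolic ribosomal protein genes and 0.57 over 39 complex I genes. Over the 45 genes of the translation list described further on it was 0.48. A change of less than 1 on the log2 scale was fitted for 73 of the 74 (98.6%), compared with 72.6% of all genes. The share was 87.7% of the cytosolic ribosomal protein genes, 97.4% of the complex I genes and 93.3% of the translation list. In bulk tissue fewer cells of a type and less RNA per cell cannot be told apart.

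The intervals show how much change these samples could have hidden. The median SE of a log2 fold change was 0.27. The 95% interval lay wholly below 0 for 5 genes and wholly above 0 for 1, and it stayed within a change of 1 in either direction for 36. For the other genes a doubling or a halving in 1 direction at least was not outside the interval. The median depended on single libraries: it was -0.43 without ischemia replicate 1, -0.12 without ischemia replicate 2 and -0.07 without sham replicate 2.

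**Figure D1:**
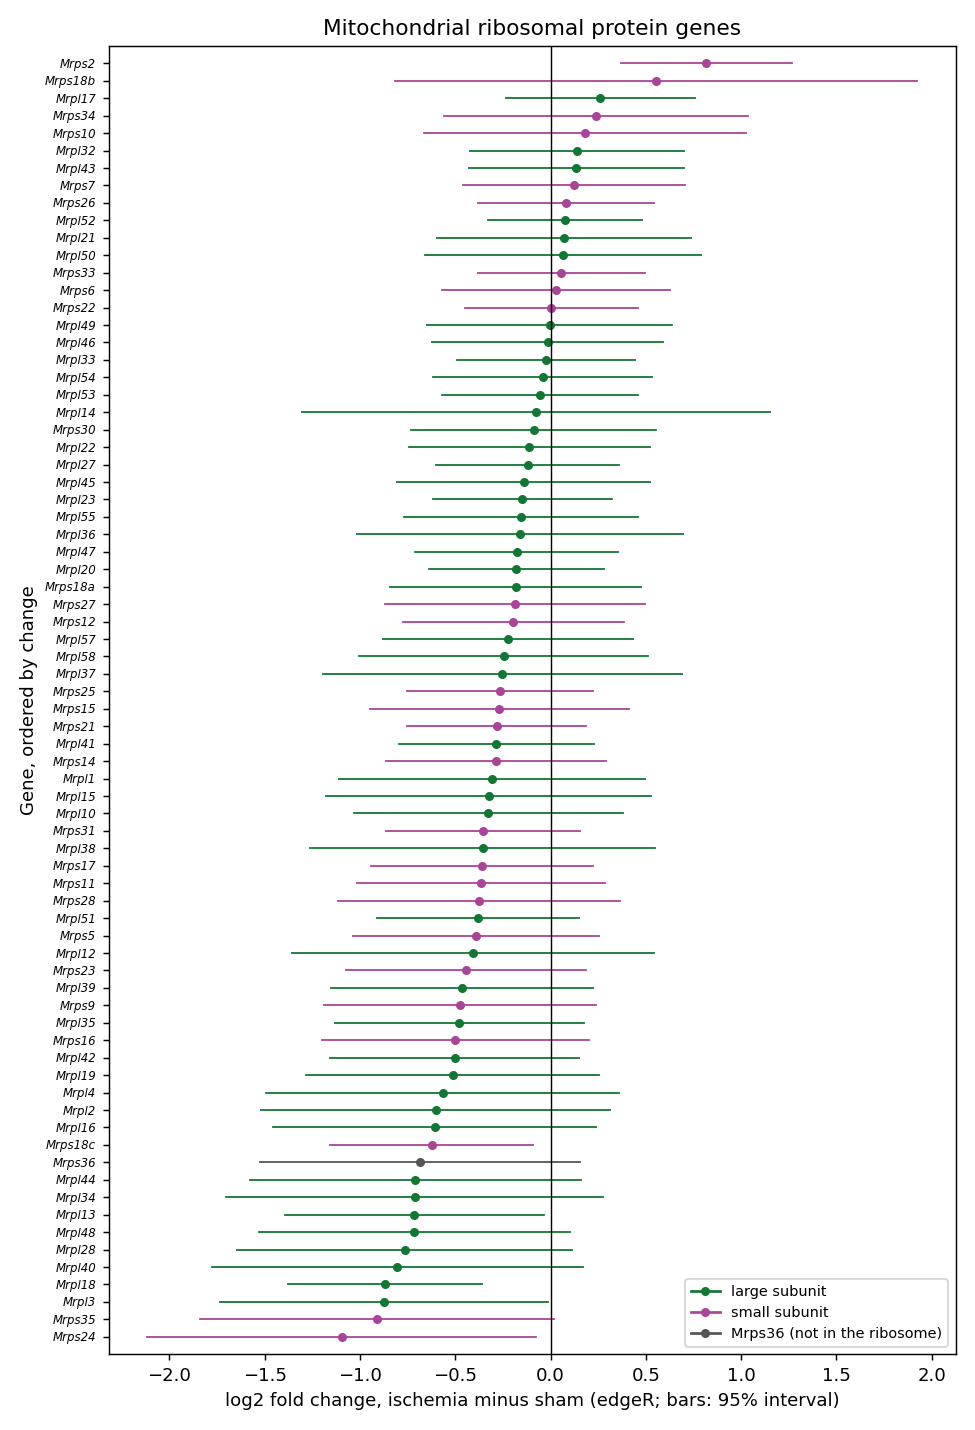
Log2 fold change of each of the 74 tested genes (x axis, ischemia minus sham, fitted by edgeR) with its 95% interval, ordered by change, in green for the large subunit, purple for the small subunit and grey for *Mrps36*. *Mrps2* at 0.82 is the only gene whose interval lies above 0, and most points lie between -0.5 and 0.1 with intervals across 0.

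*Mrps2* (ENSRNOG00000010164, chromosome 3, bases 7051695 to 7058521, + strand, in the coordinates of the deposited table, whose build is not given in the sources used here) codes for the small subunit protein related to bacterial S2. It had one of the lowest levels of the family, with FPKM of 8.28, 8.70 and 8.99 in sham samples and 14.02, 17.2 and 17.7 in ischemia samples. Every ischemia sample was above every sham sample, and the sham samples lay close together (8.66 ± 0.352 against 16.3 ± 1.98, mean ± SD, n = 3 each). The log2 fold change was 0.82 ± 0.19 (SE; 95% interval 0.37 to 1.27), with an edgeR adjusted p of 0.0512. This p fell under 0.05 in 7 of 18 alternative analyses and ranged from 0.00339 to 0.242 over them. Beside DESeq2 and the fit without ischemia replicate 1, these were limma at each of 3 pseudocounts (with 0.1, 6.09% of all genes were higher and 1.88% lower), edgeR on genes with 5 or more FPKM on average (8.89% and 3.57%) and edgeR with total-count scaling (3.65% and 0.594%). A gene on the opposite strand overlaps *Mrps2*, RGD1306233, and had a mean FPKM of 0.17. *Mrps2* also ran against the rest of the family across samples, with a Pearson r of -0.34 to the mean of the other genes over the 6 samples.

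*Mrpl18* (ENSRNOG00000014582, chromosome 1, bases 48033768 to 48038726, + strand) codes for the relative of bacterial L18, a protein of the large subunit. Its FPKM was 41.5, 37.5 and 40.8 in sham and 28.3, 19.8 and 21.5 in ischemia. Again the groups did not overlap, here in the lower direction. The log2 fold change was -0.87 ± 0.21 (SE; 95% interval -1.38 to -0.36), with an edgeR adjusted p of 0.0573. It passed the threshold in 3 of the 18 alternatives, with DESeq2, with the stricter expression filter, and without ischemia replicate 1. The neighbouring gene *Tcp1*, which codes for a subunit of the cytosolic chaperonin, starts 372 bases away on the other strand. Its FPKM was 59.4, 34.4 and 50.4 in sham and 72.4, 118.0 and 89.9 in ischemia, so that its groups did not overlap either but lay the other way round. *Tcp1* had a log2 fold change of 0.88 ± 0.23 (SE; edgeR adjusted p = 0.0654).

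Of the other genes at the low end, *Mrps24*, the relative of bacterial S3, had the most negative fitted change at -1.10 ± 0.42 (SE; edgeR adjusted p = 0.136). Its FPKM was 45.6, 23.8 and 21.2 in sham and 21.1, 9.36 and 13.8 in ischemia. In FPKM these were apart only by the small step between sham replicate 3 and ischemia replicate 1, and on counts scaled by the trimmed mean of M-values (TMM) they overlapped. *Mrpl3*, related to the bacterial protein L3 that reaches towards the site of peptide bond formation, had 70.8, 90.0 and 66.3 in sham and 59.3, 29.1 and 44.4 in ischemia. Its log2 fold change was -0.88 ± 0.36 (SE; edgeR adjusted p = 0.1496). *Mrps35*, a small subunit protein found only in mitochondria, had 15.3, 25.7 and 17.1 in sham and 13.7, 7.62 and 12.2 in ischemia. *Mrpl13*, a large subunit protein with a bacterial relative, had 77.4, 88.2 and 78.9 in sham and 67.6, 39.1 and 52.3 in ischemia. In all 3 the lowest sample was ischemia replicate 2 and the highest was sham replicate 2, and the groups did not overlap. The log2 fold changes of *Mrps35* and *Mrpl13* were -0.91 ± 0.39 and -0.71 ± 0.28 (SE), with edgeR adjusted p of 0.160 and 0.141, and *Mrps35* had -0.50 without sham replicate 2. A gene of low level, *Mtbp* with a mean FPKM of 0.64, overlaps *Mrpl13* on the opposite strand.

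*Mrpl48*, a large subunit protein found only in mitochondria, had FPKM of 60.8, 50.1 and 51.9 in sham and 47.9, 20.7 and 35.4 in ischemia, without overlap (log2 fold change -0.72 ± 0.34, SE). *Mrpl40*, of the same class, and *Mrpl28*, with a bacterial relative, had fitted values of -0.81 ± 0.40 and -0.77 ± 0.36 (SE), but their groups overlapped. *Mrpl40* reached 26.8 FPKM in ischemia replicate 1, above the 24.9 and 25.8 of sham replicates 1 and 3. Without sham replicate 2 both *Mrpl40* and *Mrpl28* had -0.48, without ischemia replicate 1 *Mrpl40* had -1.24, and without ischemia replicate 2 *Mrpl48* had -0.43. The 8 genes with the lowest changes had edgeR adjusted p from 0.0573 to 0.213.

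The genes at the high end other than *Mrps2* lay close to 0 or varied widely. *Mrpl17* codes for a large subunit protein related to bacterial L17 and had the highest mean FPKM of the family, 163.6. It had 140.6, 146.9 and 143.2 FPKM in sham and 206.2, 166.7 and 178.1 in ischemia. These groups did not overlap in FPKM, but they overlapped in TMM-scaled counts, and the log2 fold change was 0.26 ± 0.21 (SE; edgeR adjusted p = 0.398), or 0.15 without ischemia replicate 1. *Mrps18b* had 30.6, 56.8 and 16.7 in sham and 84.1, 49.0 and 38.2 in ischemia, which gave 0.55 ± 0.57 (SE; edgeR adjusted p = 0.519). Its highest and lowest sample differed by more within sham than the group means did, and its fitted change ranged from 0.14 without ischemia replicate 1, over 0.19 without sham replicate 3, to 1.28 without sham replicate 2. *Mrps34* (0.24 ± 0.33), *Mrps10* (0.18 ± 0.35), *Mrpl32* (0.14 ± 0.23), *Mrpl43* (0.14 ± 0.23) and *Mrps7* (0.12 ± 0.24) followed, each with overlapping groups. With 1 library left out *Mrps34* ranged from 0.057 to 0.57, and the fitted sign of the last 4 was negative in at least 1 of the alternatives. Counted over all 74 genes, the FPKM groups did not overlap in 2 genes in the higher direction (23.6% of all genes tested) and in 8 in the lower direction (15%). For these 10 genes the two-sided exact permutation test gave 0.1, the smallest p that 3 samples against 3 allow. On TMM-scaled counts the numbers were 1 (22% of all genes) and 6 (19.1%).

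**Figure D2:**
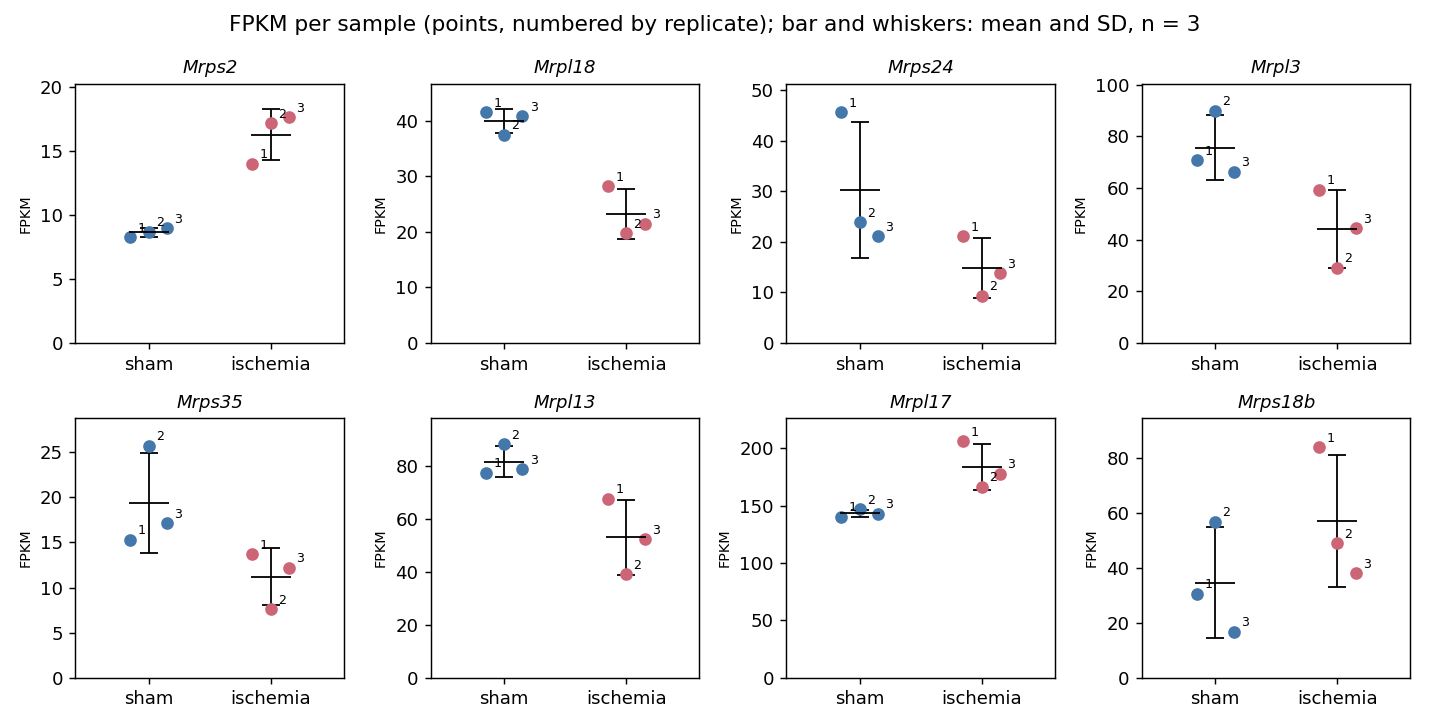
FPKM (y axis) of 8 genes in each sham sample (blue) and ischemia sample (red), with the replicate number beside each point and the mean ± SD (n = 3) as bar and whiskers. *Mrps2* and *Mrpl18* show separate groups. Ischemia replicate 2 is the lowest point in *Mrpl18*, *Mrps24*, *Mrpl3*, *Mrps35* and *Mrpl13*, and *Mrps18b* overlaps between the groups.

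By role, both subunits had similar medians, and the difference between them was not tested. The median log2 fold change was -0.25 over the 47 large subunit genes, of which 41 lay below 0, and -0.27 over the 26 small subunit genes, of which 17 lay below 0. None of either passed the adjusted threshold. The spread was wider in the small subunit (SD over genes 0.41 against 0.30), which holds the genes at both ends, *Mrps2* and *Mrps24*. The 44 genes with a bacterial relative had a median of -0.30 and the 29 found only in mitochondria had a median of -0.22.

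The levels per gene length ranged over the family from a mean FPKM of 6.44 for *Mrpl1* to 163.6 for *Mrpl17*, with a median of 33.9. After *Mrpl17* the highest were *Mrpl54* (119.7), *Mrpl12* (105.4), *Mrps7* (90.8) and *Mrpl33* (88.7). *Mrpl12* codes for the stalk protein of the large subunit, which is also known to bind the mitochondrial RNA polymerase. Its FPKM ran from 89.6 to 154.6 in sham and from 65.9 to 125.5 in ischemia, with a log2 fold change of -0.41 ± 0.39 (SE), which ranged from -0.67 without ischemia replicate 1 to 0.0062 without sham replicate 2. *Mrpl33* was the steadiest of these, with 82.2 to 90.1 in sham and 89.3 to 92.1 in ischemia (-0.02 ± 0.19, SE), and *Mrpl54* had -0.04 ± 0.24 (SE). The order of these levels was not tested: the sham values of *Mrpl54* (105.2 to 129.6) lay within those of *Mrpl12*, and those of *Mrps7* (75.2 to 94.1) enclosed those of *Mrpl33*.

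The family holds 3 relatives of bacterial S18, which are thought to occupy different places in the ribosome. *Mrps18c*, singled out after its values were seen, had FPKM of 31.7, 25.2 and 27.6 in sham and 22.1, 15.8 and 19.98 in ischemia, without overlap (log2 fold change -0.62 ± 0.22, SE; edgeR adjusted p = 0.117). *Mrps18b*, given above, had a fitted change of the other sign with overlapping groups. *Mrps18a* had -0.18 ± 0.27 (SE), with 48.3 to 65.0 FPKM in sham and 44.1 to 67.6 in ischemia. *Mrps30*, the other gene named for the wrong subunit, had -0.09 ± 0.27 (SE). *Mrps36*, whose product holds the 2-oxoglutarate dehydrogenase complex together, had 34.4, 45.0 and 36.1 in sham and 35.2, 17.2 and 24.5 in ischemia, with a fitted value of -0.69 ± 0.35 (SE; edgeR adjusted p = 0.218), or -0.43 without sham replicate 2 and -0.44 without ischemia replicate 2. Its correlation with the mean of the other genes across samples (Pearson r = 0.96) was as high as that of many ribosomal members.

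A further list covered other steps of mitochondrial translation, of which 45 genes were tested and 1, *Mtrfr*, was not matched by symbol. Of the 45, 0 were higher and 0 were lower at an adjusted p under 0.05 (edgeR), where 5.18% and 1.53% of all genes tested were. At an unadjusted p under 0.05, 5 were higher and 1 was lower, both smaller shares than the 18.2% and 14.2% of all genes. The median log2 fold change was -0.11, with 29 of 45 below 0, and turned to small positive values in 5 of the 18 alternatives. *Noa1*, a GTPase needed to assemble the small subunit, had FPKM of 3.13, 4.29 and 3.27 in sham and 9.16, 8.52 and 9.33 in ischemia. Every ischemia value was far above the sham values, with a log2 fold change of 1.22 ± 0.27 (SE; edgeR adjusted p = 0.0504), which passed the threshold in 6 of 18 alternatives. *Mrm1*, which methylates the ribosomal RNA of the large subunit, had 1.78, 2.45 and 1.80 in sham and 3.70, 5.20 and 4.28 in ischemia (1.002 ± 0.30, SE; edgeR adjusted p = 0.0835). *Tfb1m*, which dimethylates the RNA of the small subunit, had 5.63, 3.19 and 4.31 in sham and 6.80, 8.61 and 6.85 in ischemia (0.69 ± 0.23, SE; edgeR adjusted p = 0.107). None of the 3 overlapped between the groups. Over the whole list 9 of 45 did not overlap in the higher direction and 4 in the lower, smaller shares than the 23.6% and 15% of all genes.

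In the lower direction *Mtrf1*, named as a release factor, had FPKM of 5.89, 4.24 and 5.51 in sham and 3.16, 2.34 and 3.26 in ischemia (-0.90 ± 0.26, SE; edgeR adjusted p = 0.0780). *Ybey*, an endoribonuclease of ribosome maturation, had 1.42, 1.74 and 1.23 in sham and 1.18, 0.560 and 0.486 in ischemia (-1.09 ± 0.45, SE). *Rbfa*, a binding factor of the small subunit during assembly, had -0.80 ± 0.43 (SE), with groups that overlapped, and -0.51 without sham replicate 2, -1.27 without ischemia replicate 1 and -0.49 without ischemia replicate 2. *Tfam*, the packaging protein and transcription factor of the mitochondrial genome, was looked at after its values were seen and had 26.9, 20.3 and 26.2 in sham and 35.2, 37.7 and 37.4 in ischemia (0.51 ± 0.14, SE; edgeR adjusted p = 0.0753). By step, the 23 assembly and RNA modification genes had a median of -0.02 and the widest spread, from -1.09 to 1.22, the 9 translation factors had a median of -0.33, and the 5 ribosomal proteins with other names had -0.01. The median was -0.38 over 5 genes of membrane insertion and messenger RNA handling and -0.05 over 3 of mitochondrial transcription.

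The cytosolic ribosome showed another pattern in the same samples. Of 81 cytosolic ribosomal protein genes, 79 had a fitted change above 0, 17 were higher and 0 were lower at an adjusted p under 0.05 (edgeR; 5.18% and 1.53% of all genes), and the median log2 fold change was 0.67. In 72 of the 81, every ischemia FPKM was above every sham FPKM, as in 23.6% of all genes. The 39 nuclear genes of respiratory complex I, a complex that needs mitochondrial translation for its core, were taken by symbol alone. The symbols were *Ndufa*, *Ndufb*, *Ndufc*, *Ndufs* or *Ndufv* followed by a digit. The median of these 39 genes was -0.43, with 38 below 0 and 1 at 2.81. In these 0 passed the adjusted threshold and 2 were lower at an unadjusted p under 0.05, a smaller share than the 14.2% of all genes. The median of the mitochondrial family, -0.27, lay between both. The difference between the groups of genes was not tested.

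**Figure D3:**
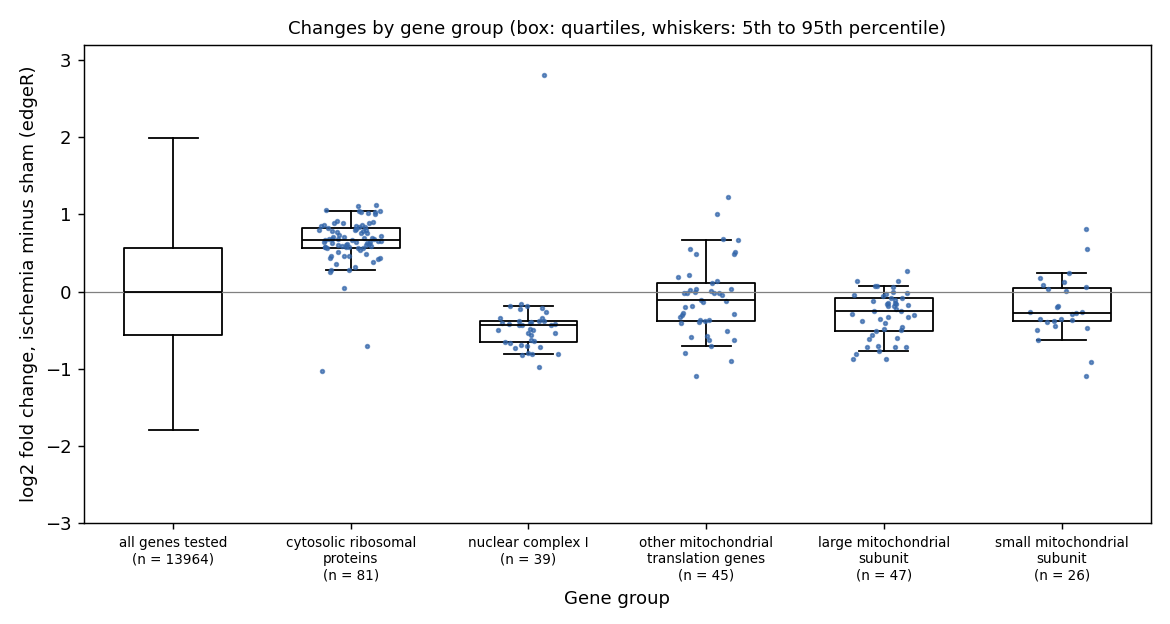
Log2 fold change (y axis, ischemia minus sham, edgeR) for all genes tested and for 5 gene groups, as quartile boxes with whiskers from the 5th to the 95th percentile and 1 point per gene in the named groups. The cytosolic ribosomal protein genes centre on 0.67, the complex I genes on -0.43, and the large and small mitochondrial subunits on -0.25 and -0.27.

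The family was uneven across the samples of each group. Each gene was set against its own mean over the 6 samples on the log2 scale of TMM-scaled counts. The median gene of the family stood at -0.06, 0.49 and -0.004 in sham replicates 1 to 3 and at 0.19, -0.49 and -0.07 in ischemia replicates 1 to 3. Sham replicate 2 was the highest of all 6 samples in 59 of the 74 genes, and ischemia replicate 2 was the lowest in 60. The TMM factor, by which counts are divided, was lowest in sham replicate 2 (0.834) and highest in ischemia replicate 2 (1.11). The share of the family in all counts, which does not use that factor, was also highest (0.426%) and lowest (0.270%) there. The part of the scaling in this pattern was not tested. The other 4 samples lay close together, and ischemia replicate 1 was above sham replicates 1 and 3. The complex I genes had the same order with wider values, 0.78 in sham replicate 2 and -0.89 in ischemia replicate 2. The cytosolic ribosomal protein genes instead stood at -0.38, -0.39 and -0.25 in sham and at 0.36, 0.30 and 0.40 in ischemia, so that each group was compact.

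**Figure D4:**
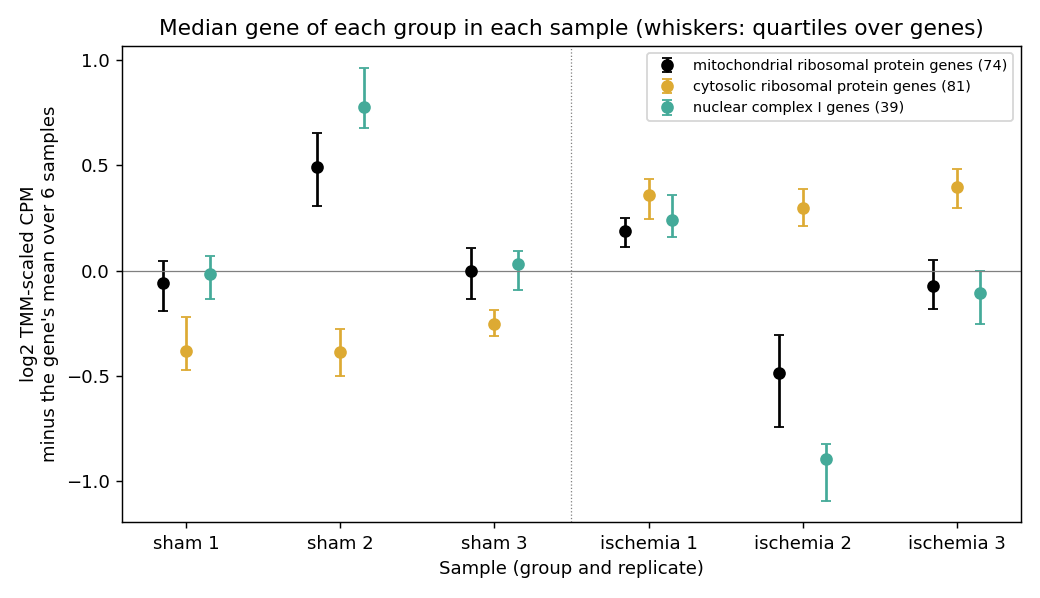
Median over the genes of each group (points; whiskers are quartiles over genes) of log2 TMM-scaled counts (CPM) minus the mean of the gene over 6 samples, for each sample on the x axis. For the mitochondrial ribosomal protein genes sham replicate 2 (0.49) and ischemia replicate 2 (-0.49) stand apart and the other samples lie between -0.07 and 0.19, whereas the cytosolic ribosomal protein genes split by group.

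These are the same libraries that stood at the ends of the ventricular marker sum. Sham replicate 2 had the highest sum of the 7 ventricular markers (23191), and ischemia replicate 2 had the lowest (6152). The sum of the 5 atrial markers was lowest in sham replicate 2 (216), but this order rested on *Nppa*. *Nppa* had 67.7 FPKM in sham replicate 2 against 2051 and 1251 in ischemia replicates 2 and 3. *Sln*, *Bmp10*, *Myl7* and *Myl4* were each higher in sham replicate 2 than in ischemia replicates 2 and 3. For *Sln* the values were 15.9 against 3.89 and 3.80 FPKM. The summed FPKM of 10 neutrophil and monocyte markers was 197, 176 and 271 in sham and 1501, 9613 and 2367 in ischemia, again with ischemia replicate 2 at the far end, and all 10 were higher in every ischemia sample than in every sham sample, as were 23.6% of all genes. Among these markers *Cxcr2* had 0.23 to 0.35 FPKM in sham and 4.27, 42.9 and 4.91 in ischemia. The sum of 3 endothelial markers was 86.4 to 135.5 in sham and 95.7 to 128.2 in ischemia, and that of 4 fibroblast markers was 331 to 1125 in sham and 172 to 414 in ischemia. Every ischemia FPKM was below every sham FPKM in 3 of the 7 ventricular, 1 of the 5 atrial, 2 of the 4 fibroblast and 0 of the 3 endothelial markers. Of all genes, 15% were lower in this way. The part of cell content in the values of the ribosomal genes was not tested.

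The genes moved together across the samples. The median Pearson r between pairs of the 74 genes over the 6 samples was 0.77, compared with 0.90 between cytosolic ribosomal protein genes and 0.95 between complex I genes. All points share the same 6 libraries and their scaling, so these r are descriptions. The r of a gene to the mean of the other genes was over 0.8 in 52 of 74 and under 0 in 2, *Mrps2* (-0.34) and *Mrpl1* (-0.008). *Mrpl1*, the gene with the lowest mean FPKM of the 74, had FPKM of 10.6 in sham replicate 1 and 5.14 to 6.38 in the other 5 samples. The lowest r after these were 0.35 for *Mrps10*, 0.37 for *Mrps18b*, 0.39 for *Mrpl52* and 0.42 for *Mrpl14*, which had FPKM of 14.9, 24.8 and 37.8 in sham and 42.8, 22.4 and 13.2 in ischemia. *Mrpl1*, *Mrpl52* and *Mrpl14* were singled out after their values were seen. Within the groups the highest sample was over 2 times the lowest in 4 genes in sham and in 13 in ischemia, and the median ratio was 1.26 in sham and 1.504 in ischemia. These ratios were not computed for genes outside the family, so they do not show whether the family was more variable than others.

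**Figure D5:**
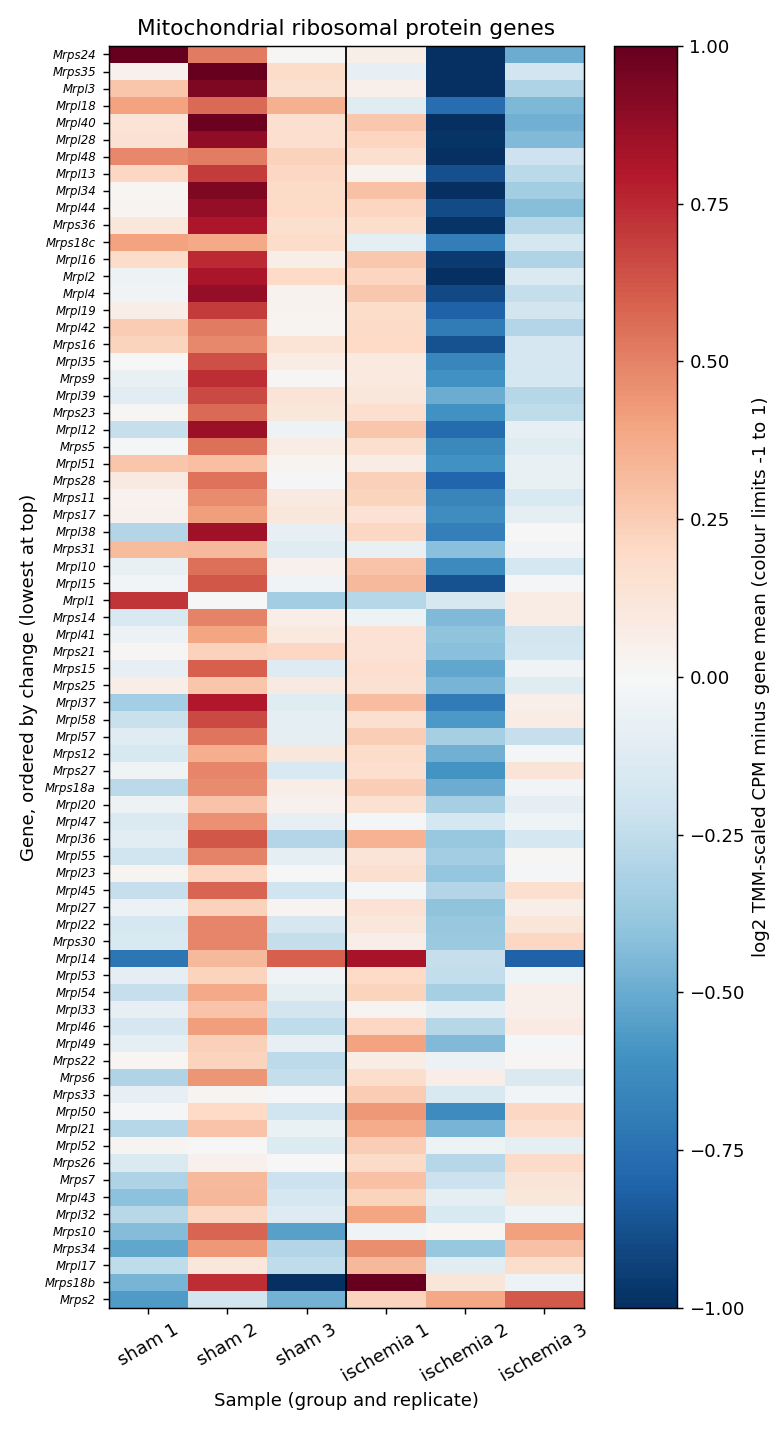
Log2 TMM-scaled counts (CPM) of the 74 tested genes (rows, ordered by fold change) minus the mean of each gene over the 6 samples (columns), with colours limited to -1 and 1. Sham replicate 2 is red and ischemia replicate 2 is blue in most rows, and *Mrps2*, *Mrps18b*, *Mrps10*, *Mrpl52*, *Mrpl14* and *Mrpl1* are among the rows that depart from that pattern.

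Some of the genes share their start region with a neighbour. For 17 rows another gene began within 1000 bases on the other strand, and both genes were tested in 15 distinct pairs. The fitted changes had the same sign in 10 of the 15. *Mrpl18* and *Tcp1*, described above, were of opposite sign with non-overlapping groups in both. *Mrpl46* and *Mrps11*, which start 72 bases apart, are both of the family and had -0.01 ± 0.25 and -0.37 ± 0.27 (SE). No neighbour in these pairs passed the adjusted threshold. A gene on the opposite strand overlapped 11 of the rows, and for those values reads of both genes can be told apart only if strand was used in counting, which the sources used here do not state.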

How the data were processed

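RNA sequencing of 3 sham and 3 ischemia samples, grouped by their treatment labels, was used as 1 table with 32623 Ensembl rat genes. The counts deposited by the authors were raw whole numbers. The FPKM values had been computed by the authors, with 0.0001 for genes without reads. STAR and HTSeq were named in the submitters' processing notes; versions, genome build and strand setting are not given in the sources used here.

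Ischemia was compared with sham by the quasi-likelihood test of edgeR 4.0.16 (R 4.3.3) with TMM scaling and no covariate, on genes with 0.5 or more FPKM on average, with two-sided p-values, Benjamini-Hochberg adjustment and a threshold of 0.05. SE was derived from the F statistic. Single FPKM values were compared by two-sided exact permutation tests. Alternatives used DESeq2 1.42.0, limma 3.58.1 on log2(FPKM + 0.1), other pseudocounts, filters and scalings, a replicate block, no mitochondrial genome, and each sample left out.

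The gene family and lists were chosen with earlier results of these data known. Named were the 8 highest and 8 lowest members by change, the 5 most abundant, *Mrps30*, *Mrps18a*, *Mrps36*, and the 3 highest and 3 lowest genes of the translation list. *Mrps18c*, *Mrps11*, *Mrpl46*, *Mrpl1*, *Mrpl14*, *Mrpl52*, *Tcp1*, *Mtbp* and *Tfam* were added after their values were seen.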

Additional observations from a re-analysis of the deposited data

How the results depend on the processing

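The median log2 fold change of the 74 genes stayed negative in all 18 alternatives. Leaving out 1 sample each gave -0.43 to -0.07, with 0 to 1 genes higher and 0 to 1 lower, and a covariate for atrial genes, chosen after seeing the data, gave -0.35. *Mrps2* was the 1 gene called higher with DESeq2, with limma at each of 3 pseudocounts, among genes with 5 or more FPKM on average, with total-count scaling and without ischemia replicate 1. Genes called lower were 2 with DESeq2 (*Mrpl18* and *Mrps18c*), 1 at 5 or more FPKM and 1 without ischemia replicate 1 (*Mrpl18* in both). In the translation list DESeq2 called 4 of 45 higher and 2 lower, against 14.8% and 12.5% of all genes. Limma at each pseudocount, the stricter filter and total-count scaling each called 1 higher, against 6.09% (pseudocount 0.1), 8.89% and 3.65% of all genes. Leaving out 1 sample called 0 higher and 0 to 1 lower, the 1 (*Ybey*) without ischemia replicate 1. The median of that list became 0.0089, 0.0081 and 0.0089 with limma at pseudocounts 0.1, 1 and 0.01, 0.0058 with total-count scaling, and 0.081 without sham replicate 2, within a range of -0.23 to 0.081 over the samples left out.

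The signs of small changes were not stable. With limma at pseudocounts 0.1, 1 and 0.01 and with total-count scaling the log2 fold change was 0.077, 0.076, 0.077 and 0.080 for *Mrpl33*, 0.054, 0.054, 0.054 and 0.063 for *Mrpl54*, and 0.019, 0.018, 0.019 and 0.022 for *Mrps30*. Leaving out 1 sample gave ranges of -0.67 to 0.0062 for *Mrpl12*, -0.054 to 0.29 for *Mrpl32*, -0.11 to 0.12 for *Mrpl33*, -0.016 to 0.37 for *Mrpl43*, -0.18 to 0.16 for *Mrpl54*, -0.016 to 0.62 for *Mrps10*, -0.38 to 0.025 for *Mrps18a*, -0.22 to 0.17 for *Mrps30* and -0.0012 to 0.34 for *Mrps7*. The atrial covariate gave -0.010 for *Mrpl43* and -0.22 for *Mrps10*. For the named genes 455 values kept sign and side of the threshold, 20 passed it newly and 26 changed sign. The cause of these changes was not tested.

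Whether replicate numbers paired the samples could not be decided. Deviations from the group means correlated at a mean of -0.11 for equal and 0.053 for unequal numbers. With 3 samples a group the deviations within a group depend on each other. These means are therefore not independent and cannot exclude a pairing. With the replicate number as a block the median was -0.25, and 0 genes of the family were called in either direction. The median SE of 0.27 limits the size of change that 3 samples a group can show.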
